A study of Mus musculus with 3 samples.

Results

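The genes described here are 10 members of the Notch pathway, namely the receptors Notch1, Notch2, Notch3 and Notch4, the ligands Dll4, Jag1 and Jag2, the DNA-binding factor Rbpj and the target genes Hey1 and Hes1. They were picked by their symbols and not by their values, although earlier results of these data were known. All 10 are among the 17583 genes of the deposited table. The samples are 3 EC-RiboTag mice of the genotype Cdh5-CreERT2;Rpl22tm1.1Psam, in which an inducible Cre recombinase (CreERT2, activated by tamoxifen) under the promoter of the endothelial cadherin gene Cdh5 adds a hemagglutinin tag to the ribosomal protein RPL22. Ribosomes were pulled down from heart homogenates through this tag, and the RNA on them was sequenced. According to the sample labels the hearts were taken 7 days after coronary ligation, whereas the RiboTag methods of the study mention no infarction, and the labels give neither age nor sex. The sample titles (hrtRz with a replicate number) hold letters that the labels do not spell out. Elsewhere the study describes endothelial RNA pulled down from a remote zone (RZ) and from border and infarct zones at this time. Whether the values are of whole hearts or of a part of the heart is thus not given in the sources used here. All mice form a single group without a control, and no input library was analysed here, so levels are described and no change between conditions could be tested. Cdh5 is also active in endocardium and lymphatic endothelium, so the tag is not limited to blood vessels.

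Notch receptors are single-pass membrane proteins that are activated by ligands of the Delta and Jagged families on a neighboring cell. Binding exposes the receptor to cleavage by ADAM metalloproteases and then by gamma-secretase, the complex that also processes APP, and the freed intracellular domain joins RBPJ on DNA to switch on genes of the HES and HEY families of transcriptional repressors. In blood vessels the pathway is known for the choice between tip and stalk cells during sprouting, for arterial identity and, through Notch3, for the smooth muscle cells and pericytes of the vessel wall.

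The deposited values, called normalized counts here, are whole numbers obtained by scaling the read counts of each library. They summed to 7149102, 7158585 and 7268785 in mice 1, 2 and 3. The gaps and doublings that scaling and rounding left among the low values put the worth of 1 read at 0.961 to 1.06 normalized counts, that is 6755000 to 7566000 reads per library. All 12 endothelial markers were present, with a median of 690.1 ± 13.4 normalized counts per kb of canonical transcript (SD, n = 3 mice). The same measure was 565.2 ± 18.9 for 10 cardiomyocyte markers, 421.7 ± 76.2 for 4 endocardial, 297.5 ± 9.6 for 6 arterial, 127.3 ± 29.0 for 4 lymphatic, 86.4 ± 13.9 for 6 fibroblast, 46.0 ± 5.6 for 10 mural and 25.4 ± 6.6 for 6 leukocyte markers, and no marker was at 0 in any mouse. Genes of other heart cell types were thus read beside those of endothelium. Mouse 1 stood apart from mice 2 and 3 in the sex-linked genes Xist (4, 618 and 869 normalized counts in mice 1, 2 and 3) and Ddx3y (1080, 3 and 1). These are values of a male heart in mouse 1 and of female hearts in mice 2 and 3. Any difference of mouse 1 from both other mice, here and below, therefore coincides with sex, whose part was not tested. Fewer cells of a type and less RNA per cell cannot be told apart in such bulk samples.

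Notch4 and Notch1 had the highest levels of the 4 Notch receptors in the ribosome pull-down, and Notch2 and Notch3 were low. Notch4 (ENSMUSG00000015468), a receptor known from endothelium, lies on chromosome 17 of GRCm39, from 34783242 to 34807477 on the plus strand. Its normalized counts were 2568, 2369 and 2734 in mice 1, 2 and 3, a mean of 2557 ± 183 (SD, n = 3). This mean, not divided by length, ranked 82 of all genes. Per kb of canonical transcript Notch4 ranked 1263 of the 17475 genes of known length. Notch1 (ENSMUSG00000026923), the receptor needed for vascular and endocardial development, lies on chromosome 2, from 26347915 to 26406675 on the minus strand. It had 1517, 1389 and 1967 normalized counts, a mean of 1624 ± 304. Mouse 3 was the highest for both receptors and mouse 2 the lowest.

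Notch2 (ENSMUSG00000027878), on chromosome 3 from 97920843 to 98057677 on the plus strand, had 315, 385 and 425 normalized counts in mice 1, 2 and 3, a mean of 375.0 ± 55.7 (SD, n = 3). Notch3 (ENSMUSG00000038146), on chromosome 17 from 32339794 to 32385826 on the minus strand, had 145, 216 and 226, a mean of 195.7 ± 44.2. Both genes were lowest in mouse 1. Notch3 was the only one of the 10 members with a mean below 200, a level that 53.2% of all listed genes reached. Without mouse 1 the mean of Notch3 was above 200 too.

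Reads per RNA molecule grow with its length, so different genes were compared after division by the length of the Ensembl canonical transcript in kb. Duplicate reads were discarded, so reads from the same position count once, which can hold down abundant genes, the markers above included. Folds between genes on this per-kb scale may therefore be too small, which was not tested. On this scale Notch4 had 386.7 ± 27.6 normalized counts per kb (SD, n = 3), Notch1 171.2 ± 32, Notch2 35.5 ± 5.3 and Notch3 24.2 ± 5.5. Notch4 thus made up 62.8 ± 2.6% of the summed level of the 4 receptors per kb, and Notch1 27.6 ± 2.2%. Notch4 exceeded Notch1 2.28-fold, with a log2 ratio of Notch1 to Notch4 of -1.19 ± 0.17 and the same direction in each of 3 mice. The fold over Notch2 was 10.9 and that over Notch3 was 16.2. Notch1 exceeded Notch2 4.8-fold and Notch3 7.13-fold. The smallest difference, that of Notch2 over Notch3, was 1.48-fold with a log2 ratio of 0.57 ± 0.15. Each of these 6 ratios had the same direction in all 3 mice (exact sign-flip permutation test, two-sided, p = 0.25, adjusted p = 0.278 over the 10 pairs compared), and 0.25 is the smallest p that 3 mice allow.

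**Figure D1:**
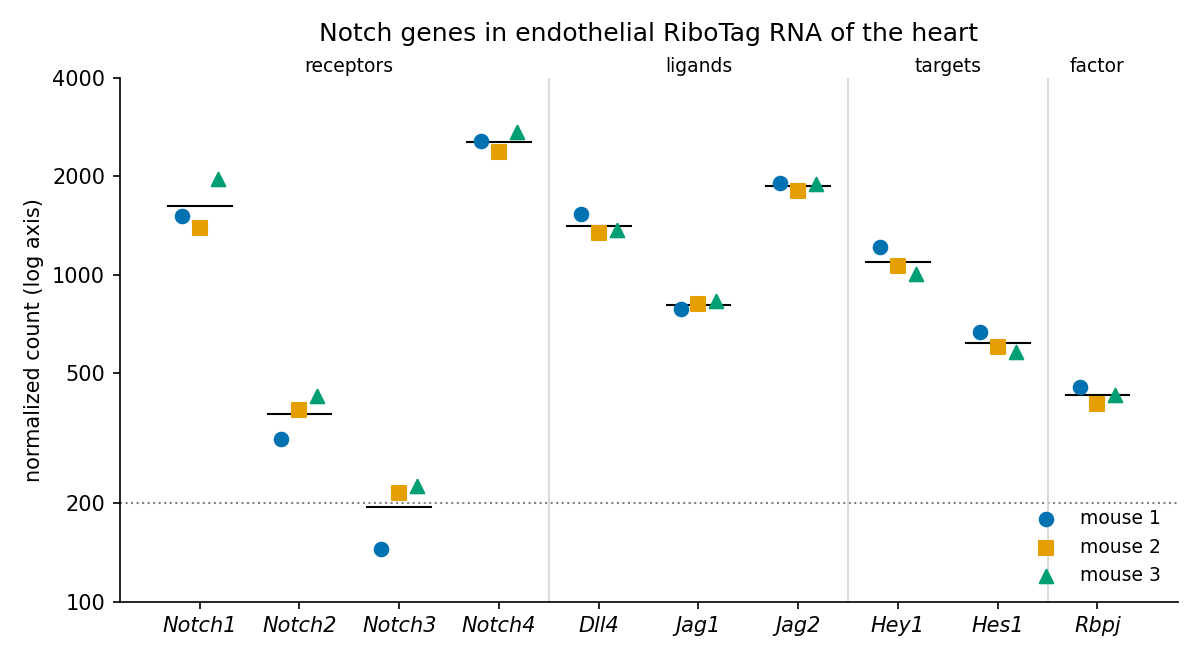
Normalized counts (log axis) of the 10 Notch genes in mouse 1 (circles), mouse 2 (squares) and mouse 3 (triangles), with the mean as a horizontal line and the level of 200 dotted. Notch4 has the highest mean with 2557, Notch3 the lowest with 195.7, and the 4 receptors have their highest value in mouse 3.

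Among the ligands, Dll4 and Jag2 lay close together per kb of canonical transcript and Jag1 was lower. Dll4 (ENSMUSG00000027314), the Delta ligand of tip cells and arterial endothelium, lies on chromosome 2, from 119156265 to 119166443 on the plus strand. Its normalized counts were 1533, 1341 and 1367 in mice 1, 2 and 3, a mean of 1414 ± 104 (SD, n = 3). Jag2 (ENSMUSG00000002799), a Jagged ligand, lies on chromosome 12, from 112871439 to 112893396 on the minus strand. It had 1915, 1808 and 1899 normalized counts, a mean of 1874 ± 57.7, which ranked 316 of all genes without division by length and 1481 per kb. Jag1 (ENSMUSG00000027276), the Jagged ligand that counters Dll4 in sprouting and signals to mural cells, lies on chromosome 2, from 136923376 to 136958564 on the minus strand. It had 788, 813 and 831 normalized counts, a mean of 810.7 ± 21.6. The values of Dll4 were highest in mouse 1, whereas those of Jag1 and Jag2 differed little between mice.

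Per kb of canonical transcript, Dll4 had 368.0 ± 27.1 normalized counts (SD, n = 3), Jag2 362.8 ± 11.2 and Jag1 141.1 ± 3.8. Dll4 exceeded Jag1 2.60-fold, a log2 ratio of 1.38 ± 0.14 (higher in 3 of 3 mice; two-sided exact sign-flip test, p = 0.25, adjusted p = 0.278). Jag2 exceeded Jag1 2.57-fold, with a log2 ratio of Jag1 to Jag2 of -1.36 ± 0.07 (3 of 3 mice; two-sided exact sign-flip test, p = 0.25, adjusted p = 0.278). On this scale Dll4 and Jag2 differed by less than the spread between mice. Their log2 ratio was 0.02 ± 0.08, with 0.11 in mouse 1, -0.00 in mouse 2 and -0.05 in mouse 3 (two-sided exact sign-flip test, p = 1). Their order depended on the length used. The log2 ratio of Dll4 to Jag2 was 0.44 by the length of all annotated exons, 0.45 by coding length and -0.41 without division by length, each with an SD of 0.08. Of the other ligands, Dll1, which also activates Notch receptors in arteries, had 795, 632 and 695 normalized counts and 173.8 ± 20.2 per kb (SD, n = 3), between Jag1 and Jag2. The atypical ligands Dlk2 and Dlk1 were low, with 88, 40 and 49 for Dlk2 and 1, 1 and 14 for Dlk1, and Dll3 and Dner have no row in the table analysed here.

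Hes1 and Hey1, the repressors that Notch signaling switches on, were both well represented and had the same order of mice. Hey1 (ENSMUSG00000040289), on chromosome 3 from 8728419 to 8732316 on the minus strand, had 1221, 1068 and 1006 normalized counts in mice 1, 2 and 3, a mean of 1098 ± 111 (SD, n = 3). Hes1 (ENSMUSG00000022528), on chromosome 16 from 29883202 to 29886614 on the plus strand, had 669, 600 and 583, a mean of 617.3 ± 45.5. Both were highest in mouse 1 and lowest in mouse 3, by 1.21-fold for Hey1 and 1.15-fold for Hes1. Their log2 ratio therefore varied little, with 0.48, 0.51 and 0.56 for Hes1 over Hey1 per kb.

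Which of the target genes was higher depended on the transcript length used. Per kb of canonical transcript Hes1 had 404.0 ± 29.8 normalized counts (SD, n = 3), the highest of the 10 members, and Hey1 282.6 ± 28.5, a log2 ratio of Hes1 to Hey1 of 0.52 ± 0.04 (higher in 3 of 3 mice; two-sided exact sign-flip test, p = 0.25, adjusted p = 0.278). The canonical Hey1 transcript of 3886 bases in the annotation used here extends 1463 bases beyond the gene coordinates of the deposited table, in which reads there could not be counted for Hey1. With the 2423 bases inside those coordinates, a length chosen after seeing the data, Hey1 had 453.3 per kb against 411.8 for Hes1, and the log2 ratio turned to -0.14. It was also negative by the length of all annotated exons (-0.32) and by coding length (-0.74).

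The promoter of Hes1 carries the core of the sequence that RBPJ binds. The 250 bases before the start of its canonical transcript are printed because Hes1 is a member that reads out the pathway. They come from the plus strand of GRCm39 at chr16:29883877-29884126, and capitals mark TGGGAA.
Hes1: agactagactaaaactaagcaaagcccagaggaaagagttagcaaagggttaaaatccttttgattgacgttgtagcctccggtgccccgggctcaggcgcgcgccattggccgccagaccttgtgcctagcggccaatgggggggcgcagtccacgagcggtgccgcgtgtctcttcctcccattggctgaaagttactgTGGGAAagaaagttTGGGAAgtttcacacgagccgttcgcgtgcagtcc

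Hes1 holds the motif at positions -49 to -44 and -35 to -30 from its start, both on the strand of the gene. Searched on both strands (TTCCCA on the opposite one), TGGGAA was present in 21.8% of 14236 promoters of the same length, those of the protein-coding genes of the table. The longer form GTGGGAA, which contains it, was present in 5.39% of these promoters, that of Hes1 included. A match shows only that these letters occur in the window.

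Rbpj (ENSMUSG00000039191), the DNA-binding protein through which all 4 receptors act, lies on chromosome 5, from 53623494 to 53814704 on the plus strand. It had 455, 402 and 430 normalized counts in mice 1, 2 and 3, a mean of 429.0 ± 26.5 (SD, n = 3), and 78.9 ± 4.9 per kb of canonical transcript. A processed pseudogene shares much of its sequence. Of the 5369 windows of 72 bases, the read length, in the canonical Rbpj transcript, 2909 (54.2%) have an exact copy elsewhere in GRCm39, all with a copy between 46503868 and 46507729 on chromosome 6, where the annotation places Rbpj-ps3 (46506288 to 46507728, minus strand) within the span of Cntnap2. None of the other 9 members had a window with such a copy. Of the Rbpj windows inside the coding sequence 82.9% are copied, and of those that reach into or lie in the 3′ region 46.9%. The authors removed reads that mapped to several places, so reads from these windows may be missing from the deposited Rbpj value. With all its counts divided by the windows without a copy, Rbpj had 174.4 normalized counts per kb, next to 172.5 for Notch1 on that scale. This holds only if no read from a copied window was counted, which was not tested, and is too high otherwise. A window that spans an exon junction of the coding sequence is printed to show the copy, with the end of the left exon (chr5:53784728-53784763) in lower case and the start of the right exon (chr5:53793304-53793339) in capitals.
Rbpj: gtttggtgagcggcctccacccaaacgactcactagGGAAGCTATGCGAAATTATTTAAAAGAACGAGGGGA

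The same 72 bases stand without the intron on the minus strand of chromosome 6 at chr6:46507654-46507725. Of the 678 Rbpj windows that span a junction, 74.6% have an exact copy of this kind. Which of these reads the aligner reported as mapping to several places cannot be read from the table, since a spliced and an unspliced alignment can score differently.

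**Figure D2:**
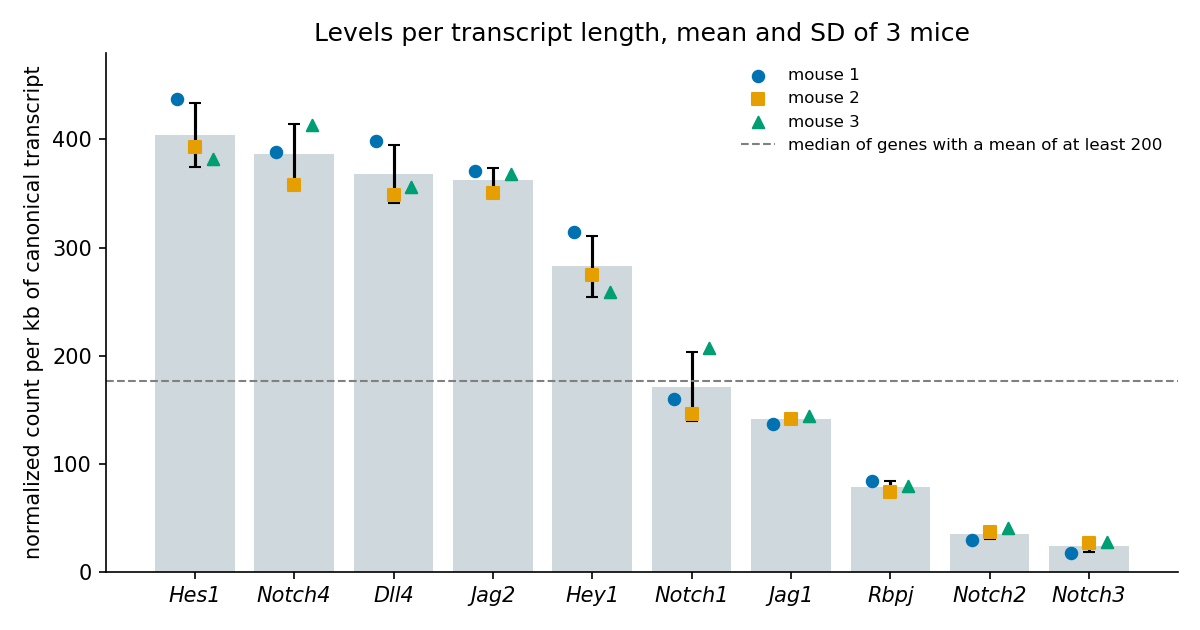
Normalized counts per kb of canonical transcript of the 10 Notch genes, as bars of the mean with the SD of 3 mice and points for each mouse. Hes1, Notch4, Dll4, Jag2 and Hey1 lie above the dashed median of 176.3 for all genes above a mean of 200, and Notch2 and Notch3 are lowest with 35.5 and 24.2.

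Ordered by level per kb, the members ran from Hes1 over Notch4, Dll4, Jag2, Hey1, Notch1, Jag1, Rbpj and Notch2 to Notch3. The first 4, between 362.8 and 404.0 normalized counts per kb, could not be ordered, because each neighboring pair changed places in at least 1 mouse. The other 6 of the 9 neighboring pairs kept their order in every mouse, and 5 of them also differed by more than the larger SD. The exception was Notch1 over Jag1, with a log2 ratio of 0.26 ± 0.24 (SD, n = 3). Several of these places changed with the length divided by. Hey1 stood above Jag2 within the deposited gene coordinates (453.3 against 367.0 per kb) and by coding length (1224 against 500.9). Rbpj stood above Jag1 by unique windows (174.4 against 142.9), if no read from its copied windows was counted. Jag1 stood above Notch1 by all annotated exons and by coding length, and Hes1 took place 5 by all annotated exons. Notch2 and Notch3 were the lowest members by every one of these lengths. For comparison, 9356 genes of known length had a mean of 200 or more, and their median was 176.3 per kb, with 428.1 marking their highest 10%.

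The spread of the members between mice was close to that of the table as a whole. Their median coefficient of variation (CV) was 7.37%, and it was also 7.37% over the 9358 genes that reached a mean of 200. None of the 9 members at this level had a CV over 20%, a value exceeded by 8.00% of all genes at this level. Jag1 and Jag2 were the most even, with 2.66% and 3.08%, where counting alone gives 3.51% and 2.31%. Notch1 (18.7%), Notch2 (14.8%) and Notch3 (22.6%) varied most, against 2.47%, 5.16% and 7.15% from counting. With mouse 1 left out 1 member passed 20%, which was Notch1, and with mouse 2 left out it was Notch2.

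As deposited, the receptors were highest in mouse 3 and the target genes in mouse 1. Of the 9 members above this mean, 5 were highest in mouse 1 (Dll4, Jag2, Rbpj, Hey1 and Hes1), 0 in mouse 2 and 4 in mouse 3 (Notch1, Notch2, Notch4 and Jag1). Over all genes at this level the shares were 37.6%, 31.9% and 29.7%. Notch3, below this level, was also highest in mouse 3.

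Transcript length moved with this pattern across the whole table. Of the 1560 genes with the longest canonical transcripts, from 6281 bases, which include the 3 receptors Notch1, Notch2 and Notch4, 59.7% were highest in mouse 3 and their median log2 ratio of mouse 3 to the mean of the other mice was 0.13. Of the 1560 with the shortest, up to 1915 bases, which include Hes1, 5.51% were highest in mouse 3 and the median was -0.12. Across 9356 genes, which are not independent replicates, the Spearman correlation of this ratio was 0.47 with transcript length and 0.0083 with GC content. For Notch4 and Hes1 the log2 ratio of mouse 3 to the others, 0.15 and -0.12, was that of genes of their length. For Notch1 it was 0.44, above the median of 0.13 and also above 0.40, which marks the highest 10% of that length class. Hey1 and Dll4, whose length class had a median of 0.01, had -0.19 and -0.07.

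The values were also computed with the median deviation of genes of similar length divided out, an alternative chosen after seeing the data. Notch1 then had 1623, 1414 and 1821 in mice 1, 2 and 3, with a CV of 12.6%. Notch2 had 336.9, 391.9 and 393.5 (CV 8.61%), and Notch3 151.5, 221.0 and 212.9 (CV 19.5%), so both were still lowest in mouse 1. Hey1 stayed highest in mouse 1 with 1224, 1069 and 1008. Hes1 had 655.2, 585.5 and 614.9, so that its order no longer matched that of Hey1. Notch4 had 2644, 2419 and 2608 and was then highest in mouse 1, and Notch3 in mouse 2, so 2 of the 4 receptors no longer were highest in mouse 3. Of the 9 members, 6 were then highest in mouse 1, 1 in mouse 2 and 2 in mouse 3.

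**Figure D3:**
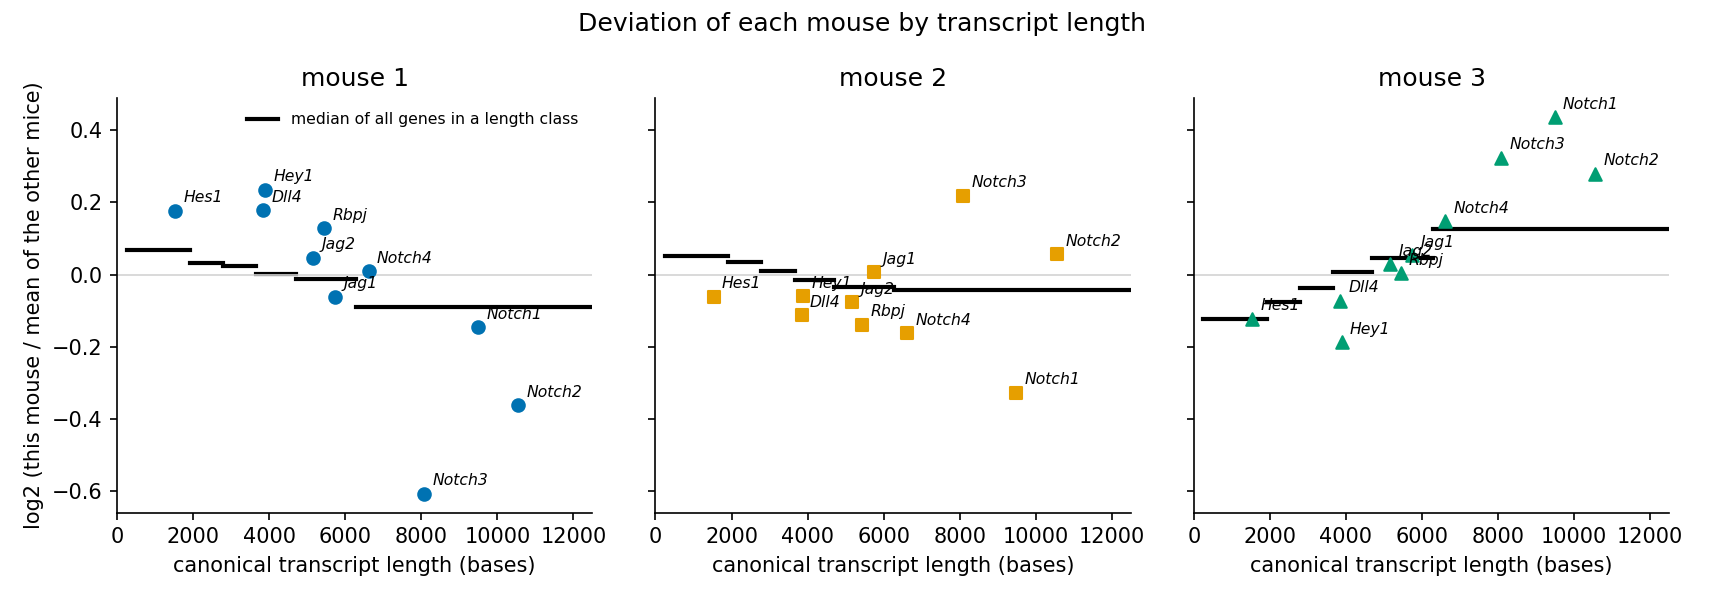
Log2 ratio of each mouse to the mean of the other mice (vertical axis) against canonical transcript length in bases (horizontal axis) for the 10 Notch genes (points), with the median of all genes above a mean of 200 in 6 length classes (black lines). In mouse 3 the lines climb from -0.12 to 0.13 with length, Notch1 lies above them at 0.44, and in mouse 1 Notch3 lies below them at -0.61.

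Notch3 is known as a receptor of mural cells, so the mural markers of the same libraries were set beside it. All 10 were present, with summed normalized counts of 2616, 2804 and 3102 in mice 1, 2 and 3. Per kb, Notch3 was 1.92-fold below the median of this list, a log2 ratio of -0.94 ± 0.28 (SD, n = 3; lower in 3 of 3 mice; two-sided exact sign-flip test, p = 0.25), and 29.0-fold below that of the endothelial list, a log2 ratio of -4.86 ± 0.38 (two-sided exact sign-flip test, p = 0.25). The size depended on the length used. The log2 ratio to the mural list was -0.52 by all annotated exons, -1.49 by coding length and -0.06 without division by length, where p was 0.75 in the exact test, and that to the endothelial list ran from -5.47 by coding length to -3.71 without division. The 4 smooth muscle genes among the mural markers, a subset chosen after seeing the values, Acta2, Myh11, Tagln and Cnn1, summed to 202, 456 and 800. They were lowest in mouse 1, as Notch3 was with 145, 216 and 226. The 5 pericyte genes, Pdgfrb, Rgs5, Cspg4, Kcnj8 and Abcc9, summed to 1409, 1550 and 1486, with a smaller spread. The mural markers did not move as one, since Des, in neither subset, had 1005, 798 and 816 and Kcnj8 138, 85 and 119, both highest in mouse 1, and Abcc9 had 383, 301 and 396. A lowest sum in mouse 1 was also found for the leukocyte (446, 671 and 681), lymphatic (2583, 3252 and 3735), fibroblast (2315, 2431 and 2860) and cardiomyocyte lists (20679, 21339 and 24237), and is not particular to mural genes. By median per kb the first 3 of these lists stayed lowest in mouse 1. The cardiomyocyte list did not, with 570.6, 580.8 and 544.2. In that list the long gene Ttn had 7379, 7743 and 10190, whereas Myl2 had 729, 701 and 605 and Pln 1433, 1230 and 1229. The part of these cells in the Notch3 and Notch2 values was not tested.

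Notch1 is known to be high in endocardium, the inner lining of the heart chambers. The 4 endocardial markers summed to 4683, 3853 and 6265 in mice 1, 2 and 3, and the natriuretic peptide receptor gene Npr3 among them had 1589, 914 and 2228. Mouse 2 was lowest and mouse 3 highest in these sums, as for Notch1 with 1517, 1389 and 1967. Cytl1 (555, 424 and 614) and Cgnl1 (1754, 1663 and 2486) had this order too. Plvap did not, with 785, 852 and 937, and was lowest in mouse 1. The part of endocardial cells in the Notch1 value was not tested. The 12 endothelial markers showed less difference, with sums of 28759, 27701 and 27593. The 6 arterial markers, set beside Dll4, summed to 6349, 5904 and 6191, whereas their median per kb was 292.6, 291.3 and 308.6, so the highest mouse differed between these measures. Of these 6 genes, 4 (Efnb2, Gja4, Gja5 and Sox17) are also on the list of further Notch targets counted here. Whether Notch controls them in these hearts was not tested.

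**Figure D4:**
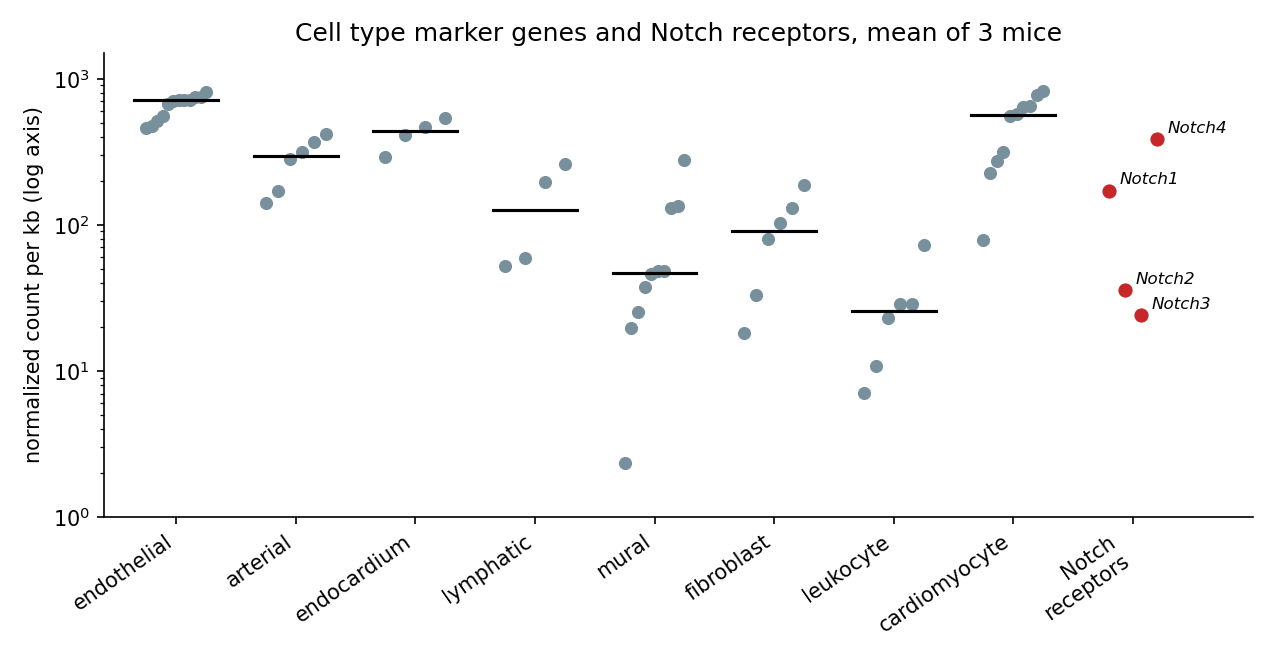
Mean normalized count per kb of canonical transcript (log axis, 3 mice) of each marker gene in 8 cell type lists (grey points, with the median of these means as a line) and of the 4 Notch receptors (red points). Notch4 with 386.7 and Notch1 with 171.2 per kb lie within the range of the arterial genes, and Notch2 with 35.5 and Notch3 with 24.2 within those of the mural and leukocyte genes. The ranges of the lists overlap, so these places are not particular to those lists. Notch4 and Notch1 also lie within the cardiomyocyte range, and Notch1, Notch2 and Notch3 within the fibroblast range. Notch4 lies within the endocardial range too, and Notch1 within the lymphatic and mural ranges.

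The rest of the pathway was present nearly throughout. Of 72 further pathway genes, 66 have a row in the table and 53 of the 72 had a mean of at least 200. Over all listed genes, 9358 of 17583 (53.2%) had such a mean. Dll3, Dner, Rbpjl, Hes2, Hes3 and Hes5 have no row, and every listed gene reached at least 4 in some mouse. The median CV of the 53 genes was 6.75%.

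All 6 genes that modify or mature the receptors passed a mean of 200. The 3 Fringe glycosyltransferases, which shift receptor preference between Delta and Jagged ligands, were among them. The highest of this group was the convertase gene Furin with 1714 ± 70.7 normalized counts (SD, n = 3), and the lowest was Rfng with 485.3 ± 25.9. The other Fringe genes, named after their values were seen, had 703.7 ± 10.0 (Lfng) and 978.7 ± 39.3 (Mfng). Per kb the order was Mfng with 517.3, Lfng with 305.3 and Rfng with 211.5.

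Ubiquitin ligases and trafficking proteins, which activate ligands by endocytosis or remove receptors, were above 200 in 12 of 14 genes. The highest was Mib1, the ligase that activates Notch ligands, with 1789 ± 51.2 normalized counts (SD, n = 3). The lowest was Neurl1a with 15.3 ± 1.5. Of the proteases that cut the receptor, 7 of 9 passed 200, from Adam10, which makes the cut outside the membrane, with 1792 ± 51.3, to Aph1c, a subunit variant of gamma-secretase, with 24 ± 7.55. For the subunit gene Aph1a, with 410.3 ± 24.6, 88.3% of windows have an exact copy elsewhere and 197 windows have none. Its 438, 391 and 402 normalized counts in mice 1, 2 and 3 exceed that number, although duplicate reads were discarded. Where these reads lie was not tested. Copies were also frequent for Cir1 (73.5% of windows), Hdac1 (66.2%) and Psenen (45.4%), named after their values were seen. Cir1 and Psenen had means below 200, with 78.3 and 111.

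All 8 coactivators that join the RBPJ complex passed 200, between Maml3 with 248.0 ± 37.0 normalized counts (SD, n = 3) and the acetyltransferase gene Ep300 with 1009 ± 227. Of the 14 corepressors, which keep RBPJ targets silent without a signal, 13 have a row and 10 passed 200. Ncor1 was the highest with 2971 ± 245 and Bend6 the lowest with 12.3 ± 8.4.

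Target genes other than Hey1 and Hes1 spanned a wide range. Of 16 listed, 13 have a row and 9 had a mean of at least 200, from the cyclin gene Ccnd1 with 2657 ± 167 normalized counts (SD, n = 3) down to Hes7 with 10.3 ± 0.6. The 4 genes Nrarp, Hey2, Heyl and Hes6 were named after their values were seen. Nrarp, a feedback inhibitor of Notch, had 1477, 1364 and 1400 in mice 1, 2 and 3, or 547.5 ± 22.4 per kb, above Hes1 with 404.0. The paralogs of Hey1 were lower, Hey2 with 66, 107 and 193 and Heyl with 212, 122 and 201. Hey2 was highest in mouse 3 and Hey1 in mouse 1, and Heyl was lowest in mouse 2. Hes6, which antagonizes Hes1, had 282, 242 and 225.

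**Figure D5:**
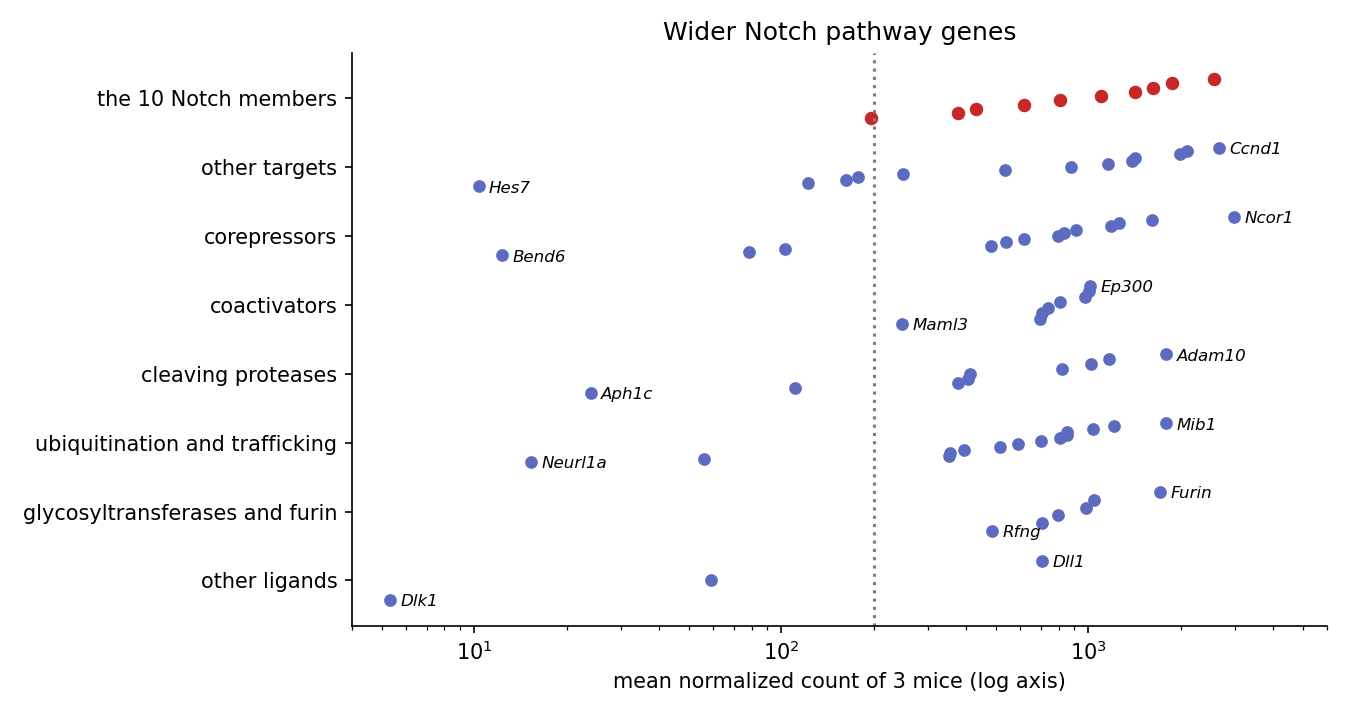
Mean normalized count over 3 mice (log axis) of the 66 further pathway genes in the table by class (blue, with the highest and lowest of each class named) and of the 10 members (red), with the level of 200 dotted. Of the 66 genes 53 lie above the line, and 9 of the 10 members do.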

How the data were processed

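The RNA on tagged ribosomes of 3 hearts was read from 1 end over 72 bases. The authors trimmed reads with Trimmomatic 0.39, aligned them with STAR 2.7.11a to mm39 (GRCm39, Ensembl annotation), discarded duplicates (Picard 3.1.1) as well as reads that were multi-mapping or came from ribosomal or mitochondrial RNA, and used featureCounts 2.0.4 for strand-specific counting over exons, without reads overlapping several genes. The deposited values are scores in the sense that the authors divided these counts by a DESeq2 1.36.0 size factor and rounded them, so they are not raw counts and no count model was run. Every value column belongs to 1 of the 3 mice.

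From these values the mean, SD and CV over mice were computed, and ratios within each mouse were compared with 0 by a two-sided, exact permutation of their signs, with Benjamini-Hochberg adjustment over 10 pairs. The labels do not say whether the mice share a litter. With 3 mice the sign-flip p-value is 0.25 whenever all 3 directions agree, whatever the spread, and it covers these samples only. The counting CV, from the estimated depth, covers counting error only. Transcript lengths come from the newer GENCODE vM39 annotation of GRCm39, in which 17475 of 17583 genes (99.39%) were found. Gene coordinates are those of the deposited table. Of the exonic bases of Notch2, 4.80% overlap another annotated gene on the same strand, and of Jag2 0.30%, where reads would not be counted. Each window of 72 bases of the canonical transcripts was searched for exact copies in the genome on both strands. Scripts were tested on simulated data. Python 3.11.15, numpy 2.4.6, pandas 2.3.3, numba 0.67.0 and matplotlib 3.10.9 were used.

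The members, the further pathway genes and the marker lists were chosen with earlier results of these data known. Named by rule are all members, other ligands, and the highest and lowest gene of each pathway class. No gene is named for a pattern like that of a member, because 3 libraries of 1 condition give none to match. Alternatives were other scalings (trimmed means of log ratios with 30% and 5% trimmed, equal totals, the endothelial median), other lengths, other level thresholds, and leaving out each mouse. For Notch3 against the marker lists they also were the mean of log2 levels and the pericyte genes alone. The length within the deposited coordinates and removal of the length trend (20 length classes) were added after seeing the data. A promoter sequence and some pathway values are not reported here.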

Additional observations from a re-analysis of the deposited data

How the results depend on the processing

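Of 12 log2 ratios recomputed in 99 settings, 10 kept their direction in every setting. The exceptions were Dll4 to Jag2, with -0.41 without division by length and -0.026 without mouse 1 (range over single mice left out -0.026 to 0.051), and Hes1 to Hey1, with -0.32 by all annotated exons, -0.74 by coding length, -0.83 without division by length and -0.14 by the canonical length within the deposited coordinates. These alternatives change the length divided by or the mice used. For Notch3 they also change the summary of both marker lists (mean of log2 levels) or keep only the pericyte genes of the mural list. The share of Notch4 among the receptors, 62.8% per kb, was 59.9% by coding length and 54.0% without division. That of Dll4 among the ligands, 42.2%, was 47.2% by all exons, 48.7% by coding length and 34.5% without division. That of Hes1 among Hes1 and Hey1, 58.9%, was 44.4%, 37.4% and 36.02% in these settings, 59.6% by unique windows and 47.6% within the deposited coordinates. The median CV of the members, 7.37%, was 7.51% with trimmed means, 7.96% with equal totals, 6.23% with endothelial scaling, 6.95% with the length trend removed and between 3.85% and 8.90% with single mice left out. The count of members with a CV over 20% lay between 0 and 1 with single mice left out. With the length trend removed, 1 member was highest in mouse 2 and 2 in mouse 3. Counts of genes with a mean of at least 200 stayed within 9 to 10 members and 53 to 58 pathway genes. No pairing of samples between conditions was possible because there is a single group, and the log2 ratios pair genes within each mouse. With 3 mice the exact sign-flip test cannot go below 0.25, so its p-values say nothing on stability. Low genes such as Notch3, at 148 to 235 reads per mouse, are limited by counting as well as by the spread between mice.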
